A study of Rattus norvegicus with 16 samples.

Results

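Tubular injury markers are genes that kidney tubule cells switch on or raise when they are damaged, and 9 of them were followed in single rats here. They were taken as the rows of the deposited gene expression table named Havcr1 (ENSRNOG00000007243), Lcn2 (ENSRNOG00000013973), Spp1 (ENSRNOG00000043451), Clu (ENSRNOG00000016460), Cd44 (ENSRNOG00000006094), Vim (ENSRNOG00000018087), Vcam1 (ENSRNOG00000014333), Timp1 (ENSRNOG00000010208) and Krt20 (ENSRNOG00000027139), which are 9 of 35849 genes. The question was whether the kidneys of diabetic nephropathy (DN) rats carried these markers above the level of normal rats, and whether sinomenine (SIN), an alkaloid from a medicinal vine, went with a different level. RNA was sequenced from the kidneys of 16 male Sprague Dawley rats that entered the study at 6 to 8 weeks of age, with 4 rats in each of 4 groups. The normal group had an injection of citrate buffer and a normal diet. The DN group, the SIN (20 mg/kg) group and the SIN (40 mg/kg) group all had a single dose of 45 mg/kg streptozotocin, which destroys insulin-producing cells, and a diet rich in glucose and fat. The SIN groups were gavaged with that dose every day for 8 weeks and the DN group with vehicle, so all 12 diabetic rats share the streptozotocin and the diet. The labels name the tissue as kidney and do not say which zone was taken.

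The table holds between 19616312 and 25217030 estimated read counts per rat. Levels are given as CPM, the usual unit of counts relative to library size, after scaling between libraries by the TMM method over 16 rats. Library numbers follow each other inside every group, and the order of preparation and the condition cannot be told apart. Among the libraries, some stood apart by markers of other cells. DN replicate 3 had a summed level of 810 CPM over 6 smooth muscle genes, against 90.6 to 280.5 CPM in the other 15 rats. Normal replicate 1 had the lowest summed level of 9 collecting duct genes, 689 CPM against 1113 to 2448 CPM in the others. Normal replicate 2 had the highest summed level of 12 leukocyte genes, 1687 CPM against 830 to 1182 CPM in the others. These rats are kept below, and values without normal replicate 1 or DN replicate 3 are given where a result rests on them.

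In a healthy nephron, the proximal tubule cell is a polarised transporting cell with very little Havcr1, Lcn2 or Krt20. When such a cell is injured by toxins, lack of oxygen or overloaded reabsorption, it loses its transporters, flattens, makes intermediate filaments such as vimentin and secretes osteopontin, clusterin and lipocalin-2, while KIM-1, the product of Havcr1, appears on its surface and takes up dying neighbours. Cells that fail to repair are known to keep Vcam1 and other adhesion molecules. These markers differ in how particular they are to the tubule: Spp1 and Lcn2 also mark distal nephron and collecting duct cells, Vim and Timp1 are common in stroma, and Vcam1 is carried by endothelium and the parietal epithelium of the glomerulus.

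The genes cover very different amounts of RNA, and levels were compared between genes only as CPM per kilobase of the length given in the table. In the normal group Spp1 was the most abundant, at 252 ± 120 CPM per kilobase (SD, n = 4), followed by Clu at 81.3 ± 14.9, Vim at 36.3 ± 2.33, Vcam1 at 9.44 ± 1.52, Timp1 at 7.14 ± 1.31, Lcn2 at 4.08 ± 0.932 and Cd44 at 3.42 ± 0.599 CPM per kilobase. Havcr1 stood at 0.273 ± 0.214 and Krt20 at 0.123 ± 0.133 CPM per kilobase. The ranges of neighbouring genes overlapped between Spp1 and Clu, between Vcam1 and Timp1, between Lcn2 and Cd44, and between Havcr1 and Krt20. In kidney tissue as a whole, fewer cells of a type and less RNA per cell cannot be told apart, which holds for every level below.

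The promoters of Havcr1, Vim and Vcam1 are shown because these genes carry the patterns that follow: Havcr1 had the largest fold, Vim was higher in each diabetic rat than in any normal rat, and Vcam1 went the other way. Each sequence runs from 250 bases before to 50 bases after the RefSeq start of the gene in GRCr8, so it holds the upstream flank and the first transcribed bases, on the strand of the gene. The study's own reads were aligned to an older build, Rnor_6.0, and these positions are not those of the table. Capitals mark matches to the NF-kB consensus site or to the TATA motif TATAAA on either strand.
Havcr1 (GRCr8, chr10:31629528-31629827, plus strand): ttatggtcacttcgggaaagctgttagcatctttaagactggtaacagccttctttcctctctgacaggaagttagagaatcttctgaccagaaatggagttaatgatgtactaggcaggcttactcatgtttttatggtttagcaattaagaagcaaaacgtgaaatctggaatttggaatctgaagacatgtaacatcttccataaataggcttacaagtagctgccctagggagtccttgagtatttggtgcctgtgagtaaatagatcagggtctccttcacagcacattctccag
Vim (GRCr8, chr17:81577011-81577310, plus strand): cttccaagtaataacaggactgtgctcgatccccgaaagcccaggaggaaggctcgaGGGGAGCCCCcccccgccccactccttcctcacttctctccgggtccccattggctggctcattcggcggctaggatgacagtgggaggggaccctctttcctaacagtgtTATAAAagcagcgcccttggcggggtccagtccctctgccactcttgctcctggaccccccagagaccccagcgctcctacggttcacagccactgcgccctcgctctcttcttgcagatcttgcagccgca
Vcam1 (GRCr8, chr2:206742734-206743033, minus strand): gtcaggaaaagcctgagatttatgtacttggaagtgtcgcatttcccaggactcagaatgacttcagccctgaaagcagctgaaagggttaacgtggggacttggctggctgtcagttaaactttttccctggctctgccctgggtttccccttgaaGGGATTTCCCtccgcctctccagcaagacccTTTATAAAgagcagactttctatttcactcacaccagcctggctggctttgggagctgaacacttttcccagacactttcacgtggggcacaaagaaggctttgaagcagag

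In the Vcam1 promoter the NF-kB match began 93 bases before the start and 2 overlapping TATA matches, 1 on each strand, began 62 and 60 bases before it. In the Vim promoter the NF-kB match began 193 bases and the TATA match 82 bases before the start. The Havcr1 promoter held neither. Of all 33469 RefSeq promoters of this length, 4.18% held the NF-kB consensus, 14.2% TATAAA, 7.33% the AP-1 motif TGANTCA and 8.87% the STAT motif TTCNNNGAA. Promoters were found for 8 of the 9 genes, Clu being the one without an entry. Of the others, Lcn2 held the NF-kB consensus 242 bases before the start, Spp1 held TATAAA 204 bases and Krt20 49 bases before it, and none of the 8 held the AP-1 or STAT motif. A match is a string of letters, and binding of a factor was not measured.

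**Figure D1:**
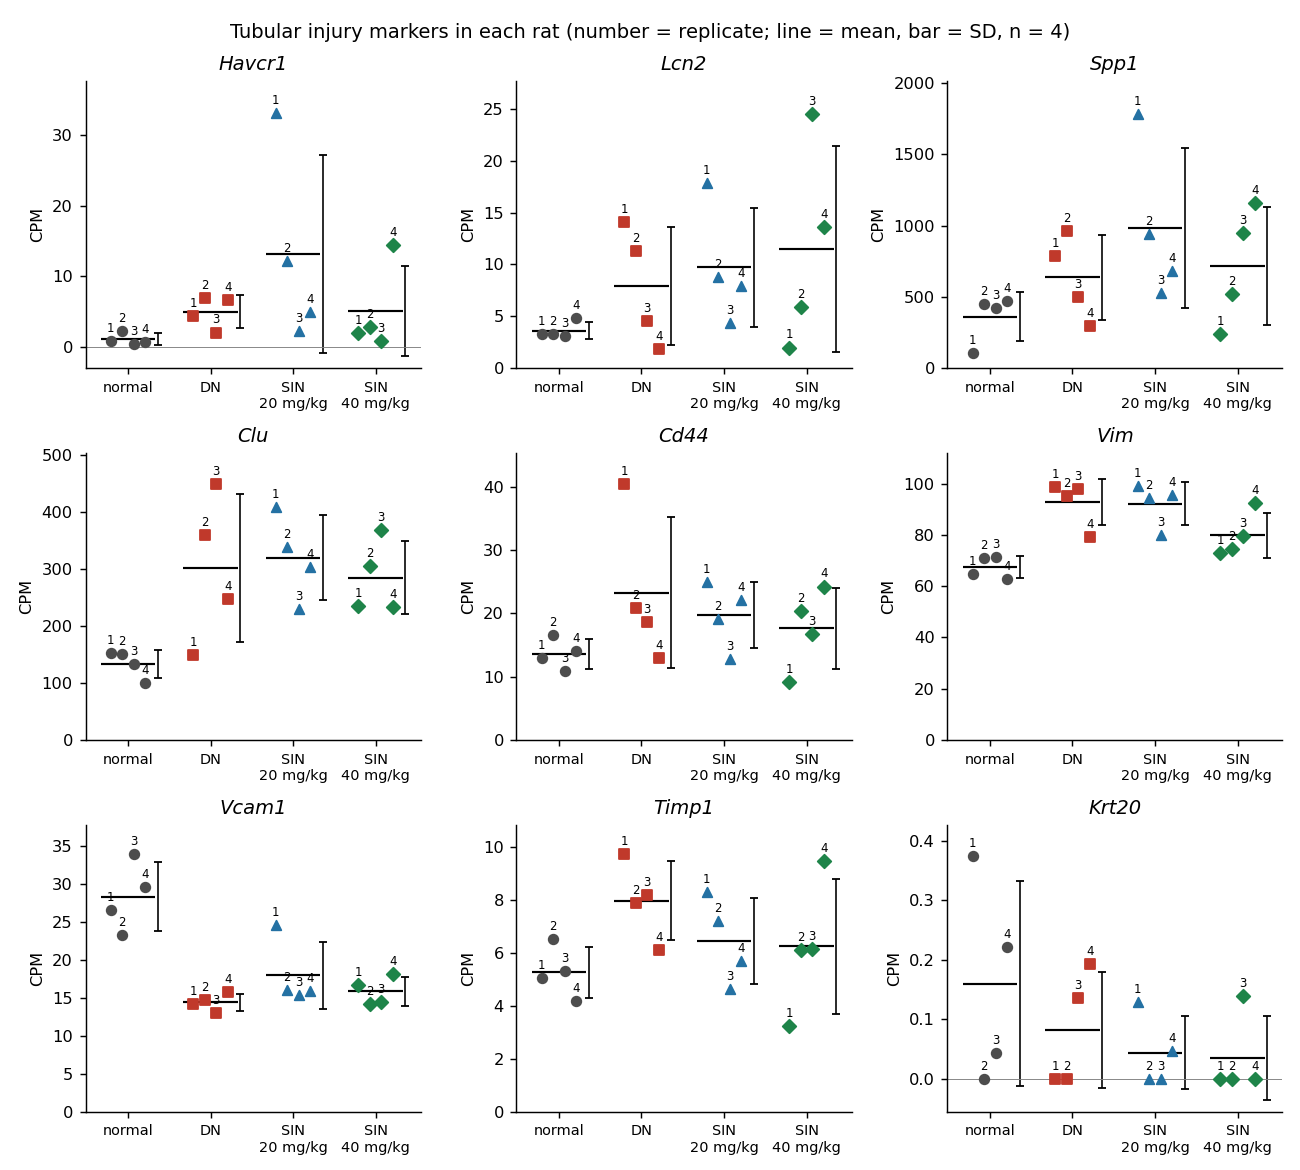
CPM of each marker in each rat, by group, with the replicate number beside each point. Horizontal lines are group means and vertical bars the SD of 4 rats. Vim is at 72.9 CPM or more in each of the 12 diabetic rats and at most 71.4 CPM in the normal rats, Vcam1 is lower in 11 of the 12 diabetic rats than in any normal rat, and Havcr1, Lcn2 and Spp1 are scattered widely within the diabetic groups.

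DN and normal kidneys differed in 4 of the 8 markers that could be tested: Havcr1, Clu and Vim rose and Vcam1 fell. By edgeR's quasi-likelihood test with an adjusted p under 0.05, 19.5% of 15775 genes differed between these groups, 8.74% higher and 10.8% lower in DN. The groups did not overlap for 2 markers, Vim and Vcam1, against 24.3% of all genes. The median log2 fold change of the 8 markers was 0.79, and that of all genes was close to 0, at 0.0016. Krt20 was too low for the test. DESeq2 called 6 of the 8, adding Cd44 and Timp1, and the exact test 4. When normal replicate 1 and DN replicate 3 were left out, a choice made after their markers were seen, 1 marker remained called, Vcam1 (adjusted p = 0.0294), and the number of all genes called went from 3074 to 928.

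Havcr1 encodes KIM-1, a surface receptor that lets tubule cells engulf debris. It was at 0.845, 2.29, 0.393 and 0.751 CPM in normal replicates 1 to 4, or 9 to 47 reads. In the DN rats it was at 4.33, 6.97, 2.04 and 6.63 CPM, in the SIN (20 mg/kg) rats at 33.2, 12.2, 2.22 and 4.90 CPM, and in the SIN (40 mg/kg) rats at 1.99, 2.86, 0.887 and 14.5 CPM. Of the 12 diabetic rats, 8 were above every normal rat and 4 lay within the normal range, and SIN (20 mg/kg) replicate 1 was 31.0 times the normal mean. The DN group was 4.69-fold over normal (95% interval 2.01 to 10.9, log2 2.23 with a standard error of 0.55, adjusted p = 0.0244), although DN replicate 3 lay below the highest normal rat. The SIN (20 mg/kg) group was 12.4-fold over normal (3.42 to 45.0, adjusted p = 0.0306), and without its replicate 1 the log2 fold change was 2.60 in place of 3.63. The SIN (40 mg/kg) group was 4.76-fold over normal with a wide interval (1.31 to 17.4), and this did not pass the test (adjusted p = 0.145). Without its replicate 4 the log2 fold change was 0.85 in place of 2.25. Leaving out normal replicate 2, the highest of the normal rats, raised the log2 fold changes of the 3 groups to 2.89, 4.3 and 2.92.

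The Havcr1 calls were lost in several alternatives. Leaving out normal replicate 1, 3 or 4 or DN replicate 2 moved the adjusted p of DN over normal to 0.0599, 0.0627, 0.0758 and 0.0617, and in a single fit of all 16 rats it was 0.0861. Leaving out normal replicate 1, 3 or 4 or SIN (20 mg/kg) replicate 2 moved that of the SIN (20 mg/kg) group to 0.0824, 0.0826, 0.0965 and 0.0648. The 2 Havcr1-like genes of the table were at no more than 0.0961 CPM and at 0, and the deposited Havcr1 value was a fraction in 1 of 16 rats. How many reads were shared with relatives was not tested.

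Lcn2, a secreted iron carrier that distal tubule and collecting duct cells release on injury, was spread widely within each diabetic group. It was at 3.33, 3.27, 3.06 and 4.86 CPM in normal rats, 14.1, 11.3, 4.53 and 1.83 CPM in DN rats, 17.8, 8.82, 4.34 and 7.95 CPM in SIN (20 mg/kg) rats and 1.99, 5.85, 24.5 and 13.6 CPM in SIN (40 mg/kg) rats. It was above every normal rat in 8 of the 12 diabetic rats and below every normal rat in DN replicate 4 and SIN (40 mg/kg) replicate 1. The folds over normal were 2.18 in DN (0.973 to 4.89, adjusted p = 0.147), 2.69 in SIN (20 mg/kg) (1.50 to 4.81, adjusted p = 0.0535) and 3.17 in SIN (40 mg/kg) (1.27 to 7.91, adjusted p = 0.129). None passed the test. With all rats the SIN (20 mg/kg) difference passed by DESeq2 (adjusted p = 0.00276) and by edgeR's exact test (adjusted p = 0.00722), and under the quasi-likelihood test without a filter (adjusted p = 0.0491) or with at least 10 counts in every rat (adjusted p = 0.0468). Each of the 3 also passed without 1 low rat: DN replicate 4 (adjusted p = 0.0313), SIN (20 mg/kg) replicate 3 (adjusted p = 0.0236) and SIN (40 mg/kg) replicate 1 (adjusted p = 0.0247). Without SIN (40 mg/kg) replicate 3, the highest rat, the log2 fold change of that group was 0.98 in place of 1.66.

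Spp1 encodes osteopontin, a secreted matrix protein that binds integrins and CD44. Its level was 105, 451, 420.0 and 472 CPM in normal rats and 790.0, 959, 500.5 and 296 CPM in DN rats. It was 1783, 942, 527 and 680 CPM in the SIN (20 mg/kg) rats and 237, 520.0, 947 and 1161 CPM in the SIN (40 mg/kg) rats. Each SIN (20 mg/kg) rat lay above every normal rat, while DN replicate 4 and SIN (40 mg/kg) replicate 1 lay within the normal range, which normal replicate 1 stretched downward. No comparison with the normal group passed the test, with 1.75-fold in DN (0.853 to 3.61, adjusted p = 0.233), 2.72-fold in SIN (20 mg/kg) (1.30 to 5.69, adjusted p = 0.113) and 1.98-fold in SIN (40 mg/kg) (0.891 to 4.40, adjusted p = 0.291). By the exact test the SIN (20 mg/kg) difference passed (adjusted p = 0.0322). In the quasi-likelihood test with the replicate number as a block, that of SIN (40 mg/kg) passed (adjusted p = 0.0179). That of SIN (20 mg/kg) did not (adjusted p = 0.246).

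Clu encodes clusterin, a secreted chaperone, and it was higher than normal in all 3 diabetic groups. It was at 152, 150.2, 133 and 99.5 CPM in normal rats, 149.8, 360.3, 449 and 248 CPM in DN rats, 408, 338, 229 and 304 CPM in SIN (20 mg/kg) rats and 234, 305, 368 and 233 CPM in SIN (40 mg/kg) rats. Apart from DN replicate 1, each diabetic rat was above every normal rat. Clu rose 2.25-fold in DN (1.43 to 3.55, adjusted p = 0.026), 2.40-fold in SIN (20 mg/kg) (1.79 to 3.20, adjusted p = 0.0047) and 2.14-fold in SIN (40 mg/kg) (1.63 to 2.82, adjusted p = 0.00665). The calls of both SIN groups held in 15 of 15 alternative settings each. That of DN was lost without normal replicate 3 (adjusted p = 0.0706), normal replicate 4 (adjusted p = 0.0797) or DN replicate 2 (adjusted p = 0.0651). It was also lost in the quasi-likelihood test with the replicate number as a block (adjusted p = 0.059).

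Timp1 encodes an inhibitor of the metalloproteases that break down matrix. It was at 5.07, 6.54, 5.33 and 4.20 CPM in normal rats, 9.73, 7.88, 8.19 and 6.10 CPM in DN rats, 8.31, 7.19, 4.64 and 5.70 CPM in SIN (20 mg/kg) rats and 3.25, 6.13, 6.16 and 9.47 CPM in SIN (40 mg/kg) rats. Among the DN rats 3 of 4 were above every normal rat, and among all diabetic rats 6 of 12. The DN group was 1.51-fold over normal (1.12 to 2.04, adjusted p = 0.0577), a difference that passed the test without normal replicate 2 (adjusted p = 0.0374) or DN replicate 4 (adjusted p = 0.0384), and with all rats by DESeq2 (adjusted p = 0.0242). The SIN (20 mg/kg) group was 1.23-fold (0.876 to 1.72, adjusted p = 0.491) and the SIN (40 mg/kg) group 1.19-fold over normal (0.766 to 1.85, adjusted p = 0.648).

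Cd44 encodes the hyaluronan receptor, which binds osteopontin as well and appears on regenerating tubule cells. It was at 12.9, 16.6, 10.9 and 14.0 CPM in normal rats, 40.5, 20.9, 18.6 and 13.02 CPM in DN rats, 24.9, 19.1, 12.8 and 22.2 CPM in SIN (20 mg/kg) rats and 9.16, 20.3, 16.8 and 24.3 CPM in SIN (40 mg/kg) rats. DN replicate 1 was the highest of 16 rats and SIN (40 mg/kg) replicate 1 the lowest. The folds over normal were 1.71 in DN (1.06 to 2.76, adjusted p = 0.0987), 1.45 in SIN (20 mg/kg) (1.06 to 2.00, adjusted p = 0.167) and 1.30 in SIN (40 mg/kg) (0.878 to 1.93, adjusted p = 0.409). The DN fold passed the test without DN replicate 4 (adjusted p = 0.0417), and with all rats by DESeq2 (adjusted p = 0.0419).

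Vcam1 encodes an adhesion receptor for the integrin of leukocytes, and it was the only tested marker with a lower mean in the diabetic groups. It was at 26.6, 23.3, 34.0 and 29.6 CPM in normal rats, 14.2, 14.7, 12.99 and 15.8 CPM in DN rats, 24.6, 16.02, 15.4 and 15.9 CPM in SIN (20 mg/kg) rats and 16.7, 14.2, 14.5 and 18.2 CPM in SIN (40 mg/kg) rats. SIN (20 mg/kg) replicate 1, at 24.6 CPM, was the single diabetic rat inside the normal range. Vcam1 fell to 0.507 of normal in DN (0.410 to 0.627, adjusted p = 0.00457) and to 0.561 in SIN (40 mg/kg) (0.451 to 0.700, adjusted p = 0.00866), and these calls held in 16 of 16 and 15 of 15 alternative settings. In the SIN (20 mg/kg) group it was 0.635 of normal (0.481 to 0.838, adjusted p = 0.0606), and without replicate 1 the adjusted p was 0.00963. With all rats it passed by DESeq2 (adjusted p = 0.0101) and by the exact test (adjusted p = 0.0175). The deposited values of Vcam1 were fractions in 15 of 16 rats, so part of its reads had been divided among features.

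Vim encodes vimentin, the intermediate filament of mesenchymal cells and of dedifferentiated tubule cells. Its differences were small, with little scatter inside the groups. It was at 64.7, 70.8, 71.4 and 62.8 CPM in normal rats, 98.6, 95.2, 97.7 and 79.3 CPM in DN rats, 99.0, 94.3, 79.8 and 95.6 CPM in SIN (20 mg/kg) rats and 72.9, 74.5, 79.4 and 92.3 CPM in SIN (40 mg/kg) rats. Each of the 12 diabetic rats was above every normal rat. Vim rose 1.37-fold in DN (1.19 to 1.59, adjusted p = 0.0154) and 1.37-fold in SIN (20 mg/kg) (1.19 to 1.58, adjusted p = 0.0193). In the SIN (40 mg/kg) group it was 1.19-fold over normal (1.03 to 1.37), which did not pass the test although the groups did not overlap (adjusted p = 0.154). The DN call was lost without normal replicate 4 (adjusted p = 0.0561), and the SIN (20 mg/kg) call without normal replicate 1 or 4 or SIN (20 mg/kg) replicate 2 or 4 (adjusted p = 0.0566, 0.0737, 0.0568 and 0.0544). The SIN (20 mg/kg) call was also lost in the quasi-likelihood test with the replicate number as a block (adjusted p = 0.0611).

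Krt20, a keratin of the urothelium that appears in severely injured proximal tubules, was close to the limit of detection. It had 8, 0, 1 and 5 reads in the normal rats, 0, 0, 3 and 4 in the DN rats, 3, 0, 0 and 1 in the SIN (20 mg/kg) rats and 0, 0, 3 and 0 in the SIN (40 mg/kg) rats. A count of 0 allows up to 3 reads, which is 0.119 to 0.157 CPM in these libraries and covers counting error only. No difference between groups was detectable at this depth.

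**Figure D2:**
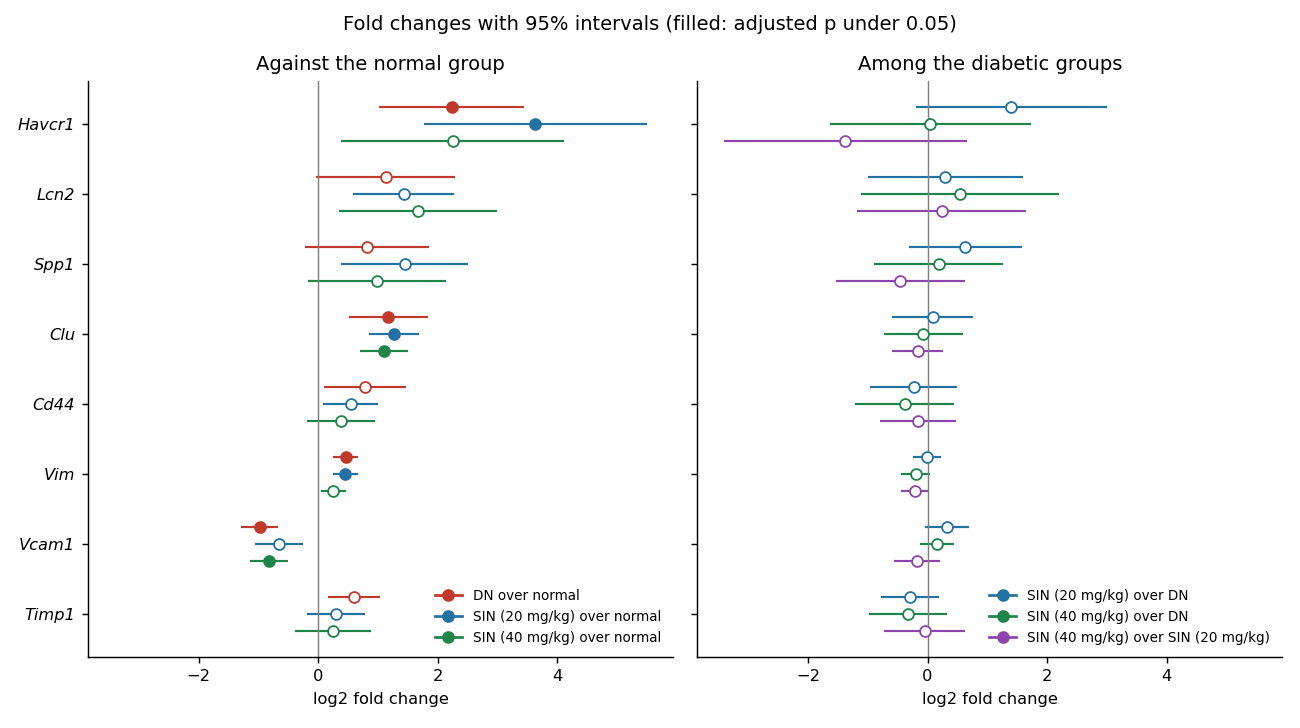
log2 fold changes of the 8 tested markers with 95% intervals, against the normal group on the left and among the diabetic groups on the right. Filled points had an adjusted p under 0.05. All intervals of Clu on the left lie above 0 and all those of Vcam1 below 0, and no point on the right is filled.

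In the SIN (20 mg/kg) group 3 of 8 tested markers were called against normal, Havcr1, Clu and Vim, all higher. Of 15877 genes 6.36% were called in this comparison, 2.77% higher and 3.58% lower. The groups did not overlap for 3 markers, Spp1, Clu and Vim, against 13.6% of all genes, and the median log2 fold change was 0.90 for the markers and 0.0029 for all genes. Without normal replicate 1 the number of markers called was 1, Clu, and it was also 1 without normal replicate 4 or SIN (20 mg/kg) replicate 2. In the SIN (40 mg/kg) group 2 of 8 were called against normal, Clu higher and Vcam1 lower. There, 5.97% of 15735 genes were called, 2.28% higher and 3.69% lower, and the groups did not overlap for 3 markers, Clu, Vim and Vcam1, against 13.9% of all genes. The median was 0.68 for the markers and 0.005 for all genes. The 3 comparisons share the same 4 normal rats.

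No marker differed between a SIN group and the DN group. Between SIN (20 mg/kg) and DN, 0 of 8 markers were called by edgeR's quasi-likelihood test, as were 0% of 15724 genes. None of the markers had an unadjusted p under 0.05, against 15.4% of all genes, and none were separated between the groups, against 8.85% of all genes. DESeq2 and edgeR's exact test called 0 of the 8 as well. Havcr1 was 2.64-fold in SIN (20 mg/kg) over DN with an interval from 0.874 to 8.00 (adjusted p = 0.364), and without SIN (20 mg/kg) replicate 1 its log2 fold change was 0.38 in place of 1.4. The interval of Vim ran from 0.845 to 1.17. The other intervals ran from 0.502 to 3.02 for Lcn2, 0.803 to 2.98 for Spp1, 0.665 to 1.70 for Clu, 0.514 to 1.41 for Cd44, 0.966 to 1.62 for Vcam1 and 0.581 to 1.14 for Timp1, so changes of those sizes in either direction were within reach of the data.

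Between SIN (40 mg/kg) and DN, 0 of 8 markers were called, as were 0% of 15530 genes. Again none had an unadjusted p under 0.05, against 17.1% of all genes, and none were separated, against 10.7%. DESeq2 and the exact test called 0 of the 8. Vim was 0.870 of DN (0.732 to 1.03, adjusted p = 0.379) and Timp1 0.794 of DN (0.504 to 1.25, adjusted p = 0.577). Havcr1 was 1.03-fold of DN with an interval from 0.323 to 3.31, and without SIN (40 mg/kg) replicate 4 its log2 fold change was -1.38 in place of 0.05. Between the doses, 0 of 8 were called, 0 had an unadjusted p under 0.05 against 4.98% of 15657 genes, and 0 were separated against 3.3%. By the adjusted threshold 0.00639% of all genes, a single gene, differed between the doses, and DESeq2 and the exact test called no marker. Havcr1 in SIN (40 mg/kg) was 0.386 of its level in SIN (20 mg/kg), with an interval from 0.0941 to 1.58 (adjusted p = 0.966). Its log2 fold change of -1.37 was -0.35 without SIN (20 mg/kg) replicate 1 and -2.78 without SIN (40 mg/kg) replicate 4.

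**Figure D3:**
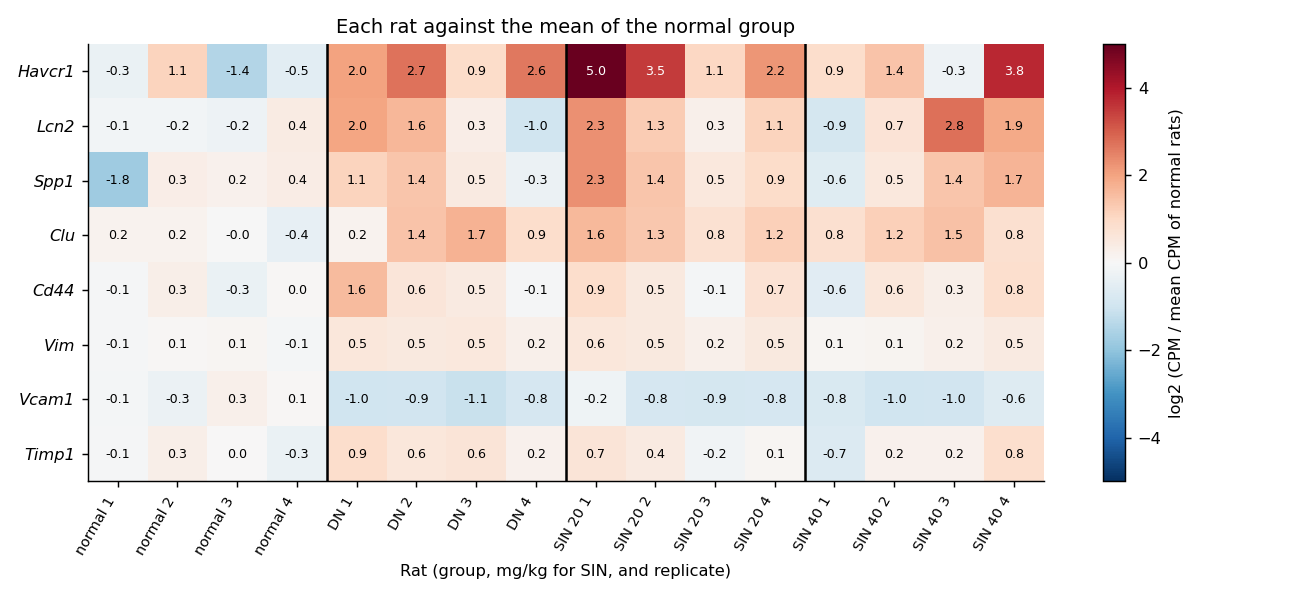
log2 ratio of each marker in each rat to the mean CPM of the normal group, with the value printed in each cell. Columns are rats in order of group and replicate, and red is above the normal mean. SIN (20 mg/kg) replicate 1 and SIN (40 mg/kg) replicate 4 are raised across most rows, SIN (40 mg/kg) replicate 1 across few, and the Vcam1 row is below 0 in each diabetic rat.

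Single rats within a diabetic group ranged from nearly all markers raised to few. In the SIN (20 mg/kg) group 7 of 8 markers were above every normal rat in replicates 1 and 2, 6 in replicate 4 and 3 in replicate 3. For SIN (40 mg/kg) rats these numbers were 2 in replicate 1, 6 in replicate 2, 5 in replicate 3 and 7 in replicate 4. In the DN group they were 6, 7, 5 and 3 for replicates 1 to 4. The share of all genes above every normal rat was not counted for these rats. The numbers therefore describe the markers and do not set them apart from other genes. Normal replicate 2, the rat with the most leukocyte RNA, was the highest normal rat in Havcr1, Cd44 and Timp1.

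SIN (20 mg/kg) replicate 1 had the highest Havcr1, Spp1 and Vim of all 16 rats and was among the top 3 rats in 7 of the 8 markers. SIN (40 mg/kg) replicate 1 was below every normal rat in Lcn2, Cd44, Vcam1 and Timp1, and 2 of its markers, Clu and Vim, were above every normal rat.

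Lcn2 and Spp1 were lower in the rats with more proximal tubule RNA, and Cd44 was as well over all 16 rats. The summed level of 17 genes of differentiated proximal tubule was highest in normal replicate 1, at 50980 CPM, and in SIN (40 mg/kg) replicate 1, at 49120 CPM, followed by DN replicates 3 and 4 at 46290 and 44310 CPM. These rats had Spp1 at 105, 237, 500.5 and 296 CPM. The lowest sums, 28340 CPM in DN replicate 1, 31340 CPM in SIN (40 mg/kg) replicate 4 and 31490 CPM in SIN (20 mg/kg) replicate 1, went with Spp1 at 790.0, 1161 and 1783 CPM. The relation was looked for after these values had been seen, with 16 relations tested (8 markers against 2 marker sums), on log2 values over 16 rats.

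With the proximal tubule sum, Pearson's r was -0.82 for Spp1 (permutation p = 7e-05, adjusted p = 0.00112, Spearman's rho = -0.79, permutation p = 0.00049, adjusted p = 0.00784), -0.77 for Lcn2 (p = 0.00062, adjusted p = 0.00496, rho = -0.72, p = 0.00221, adjusted p = 0.0177) and -0.71 for Cd44 (p = 0.00191, adjusted p = 0.0102, rho = -0.69, p = 0.00426, adjusted p = 0.0195), by permutation tests with 100000 resamples. Without normal replicate 1 and DN replicate 1, the 2 rats farthest from the median, r was -0.82, -0.76 and -0.59 (adjusted p = 0.00448, 0.014 and 0.0797, permutation test), so Cd44 no longer passed, and with the group means removed it was -0.82, -0.75 and -0.70. Gpx3 alone made up 47.5% of the sum, and without it r was -0.79, -0.76 and -0.66. Timp1 (r = -0.57, adjusted p = 0.0392) and Vim (r = -0.55, adjusted p = 0.0474) followed in the same direction by permutation test, but by rank their adjusted p was 0.0607 and 0.054, and without those 2 rats r was -0.46 and -0.35.

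Havcr1 (r = -0.40, adjusted p = 0.164) and Clu (r = -0.05, adjusted p = 0.85) did not pass the permutation test. The summed collecting duct genes went the opposite way, with r of 0.69 for Spp1, 0.63 for Lcn2, 0.60 for Vim and 0.56 for Cd44 (adjusted p = 0.0124, 0.0203, 0.0321 and 0.0424, permutation test, rho = 0.65, 0.66, 0.52 and 0.54). Without normal replicate 1 and SIN (40 mg/kg) replicate 3 r was 0.43, 0.59, 0.56 and 0.63, with adjusted p of 0.224, 0.0797, 0.0855 and 0.0694, so none passed over 14 rats, with a clearly smaller r for Spp1 and an r of similar or larger size for the other 3. With the group means removed r was 0.57, 0.52, 0.36 and 0.48. The normal and nearly all diabetic rats form separate clusters in Vcam1, and for it r with the collecting duct sum is given only with the group means removed, -0.38. CPM are relative to the library, so levels of different cell types are not independent of each other. What part this has in these relations was not tested. Whether the piece of kidney taken held more cortex in some rats was not tested.

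**Figure D4:**
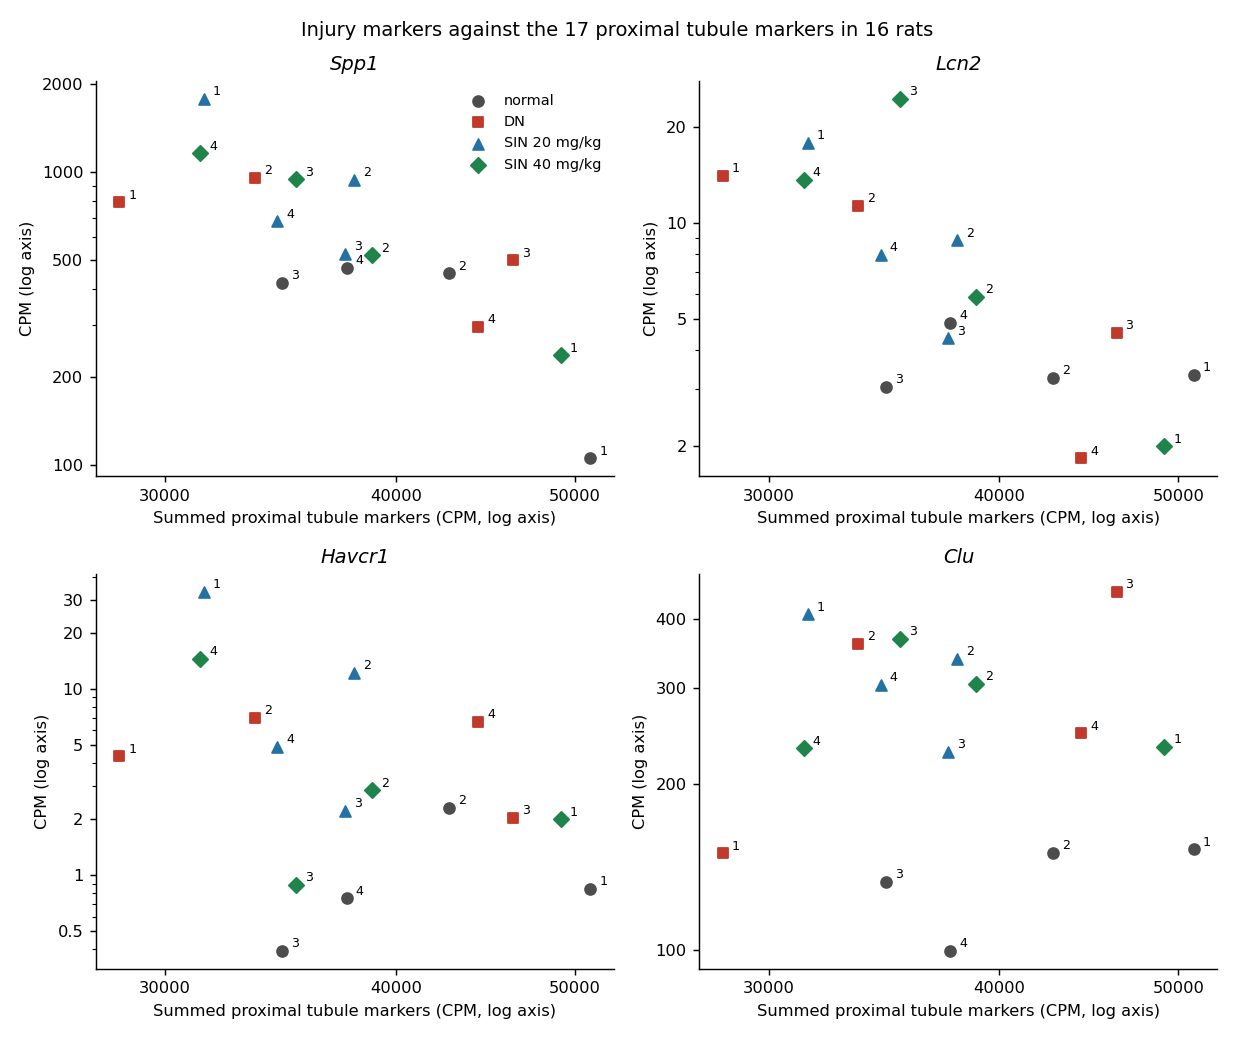
CPM of Spp1, Lcn2, Havcr1 and Clu in each rat (vertical, log axis) against the summed CPM of 17 proximal tubule genes (horizontal, log axis), with the replicate number beside each point. Spp1 and Lcn2 go down from left to right over 16 rats (r = -0.82 and -0.77), while in the Clu panel the 4 normal rats and DN replicate 1 lie below the other rats at any sum.

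Havcr1 was higher in the rats with more Vim, Spp1, Timp1 and Cd44, differences between the groups included. Over 16 rats and 7 relations, Pearson's r of log2 CPM with Havcr1 was 0.74 for Vim (permutation p = 0.00112, adjusted p = 0.00784, rho = 0.68). It was 0.63 for Spp1, 0.60 for Timp1 and 0.59 for Cd44 (permutation p = 0.00854, 0.0137 and 0.0166, adjusted p = 0.029 each, rho = 0.67, 0.66 and 0.72), and rho had an adjusted p of 0.0115 for these 3 and for Vim. For Clu r was 0.54 (permutation p = 0.031, adjusted p = 0.0434, rho = 0.46, adjusted p = 0.0884) and for Lcn2 0.43 (permutation p = 0.0969, adjusted p = 0.113, rho = 0.46).

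Without SIN (20 mg/kg) replicate 1 and SIN (40 mg/kg) replicate 4, the rats with Havcr1 farthest from the median, r with Vim was 0.70 (permutation p = 0.00618). It was 0.42 with Spp1, 0.47 with Timp1, 0.49 with Cd44 and 0.51 with Clu, with permutation p of 0.14, 0.0856, 0.0704 and 0.0606, so none of these 4 passed over 14 rats, with little change of r for Clu. With the group means removed, r was 0.60 for Timp1, 0.46 for Cd44, 0.45 for Vim and 0.41 for Spp1, and 0.04 for Clu. Vim was above every normal rat in 12 of the 12 diabetic rats and Clu in 11, so their r over all rats includes that difference between groups. For Vcam1, whose normal and nearly all diabetic levels form separate clusters, no r over all rats is read. With the group means removed it was 0.45, and SIN (20 mg/kg) replicate 1 was the highest of its group in both genes.

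**Figure D5:**
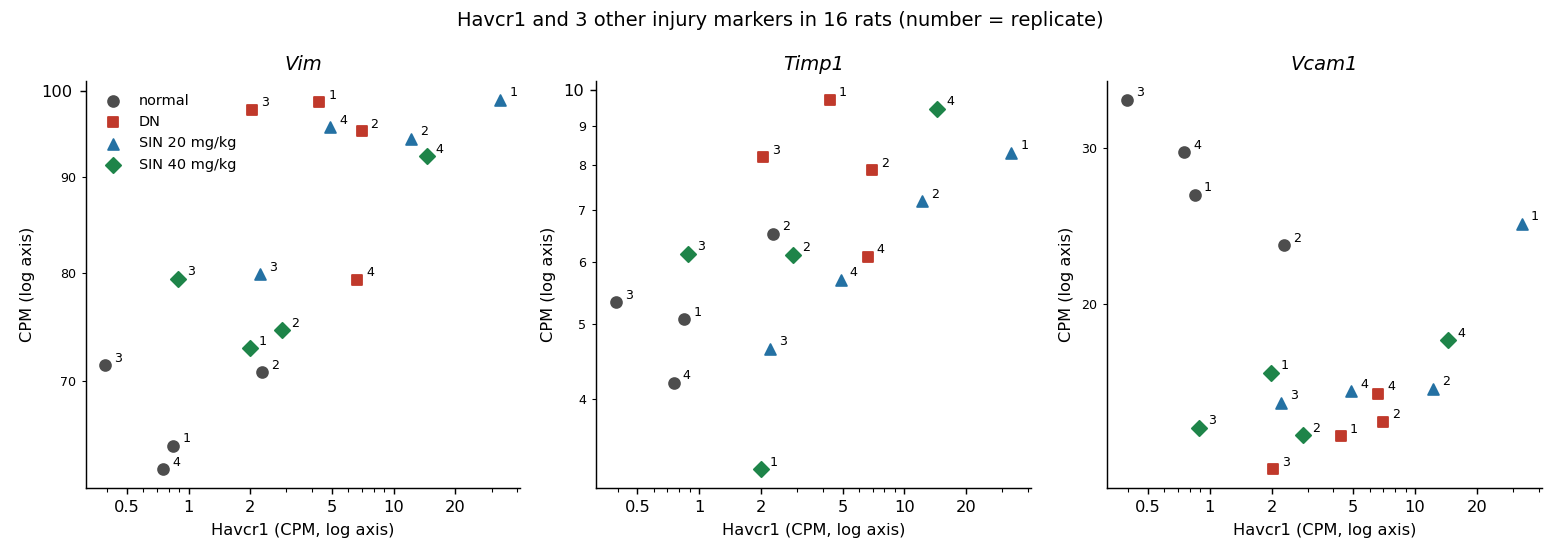
CPM of Vim, Timp1 and Vcam1 (vertical, log axis) against CPM of Havcr1 (horizontal, log axis) in 16 rats, with the replicate number beside each point. Vim goes up with Havcr1 over all rats (r = 0.74, and 0.45 with the group means removed). In the Vcam1 panel the 4 normal rats lie at the top left, and SIN (20 mg/kg) replicate 1 stands alone at the top right with 33.2 CPM of Havcr1 and 24.6 CPM of Vcam1.

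Other genes known from injured or poorly repairing tubule cells were mixed. Of 36 such genes 33 were tested between DN and normal, and 6 rose and 3 fell, with a median log2 fold change of 0.25. Of all genes 8.74% were called higher and 10.8% lower in this comparison. Those named are the 5 largest rises and the falls. Krt8, a simple-epithelium keratin, rose from 157 ± 22.1 to 279 ± 42.8 CPM (1.78-fold, adjusted p = 0.00734), Gdf15, a secreted stress factor, 2.01-fold (adjusted p = 0.011) and Cdkn1a, a cell cycle inhibitor, 1.85-fold (adjusted p = 0.0377). Fgb, a fibrinogen chain that injured tubules make, rose 10.7-fold, from 0.746 ± 0.368 to 8.00 ± 3.89 CPM (adjusted p = 0.00421).

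Hmox1, the haem-degrading enzyme, rose 49.9-fold (adjusted p = 0.0395), but 1 rat set that fold: DN replicate 1 had 706.7 CPM and the other DN rats 5.62 to 11.45 CPM, against 2.58 to 4.88 CPM in normal rats. Without that rat the log2 fold change was 1.19 in place of 5.64 (adjusted p = 0.0385). Tff3, a secreted trefoil peptide, fell to 0.450 of normal (adjusted p = 0.0374), Prom1, a marker of progenitor-like tubule cells, to 0.586 (adjusted p = 0.0148) and B2m, the light chain of class I molecules, to 0.756 (adjusted p = 0.0412). Against normal, 4 genes of the list rose and 2 fell in SIN (20 mg/kg), where 2.77% of all genes were higher and 3.58% lower. In SIN (40 mg/kg) 2 rose and 2 fell, against 2.28% and 3.69% of all genes. Krt8 and Fgb were higher and Tff3 lower in both. Of these named genes, Fgb, Gdf15 and Krt8 kept an adjusted p under 0.05 without any single rat, and the others lost it without at least 1. The list had 4 calls without normal replicate 1 and DN replicate 3. Between SIN (20 mg/kg) and DN none of the 33 was called by edgeR's quasi-likelihood test, DESeq2 or the exact test. An unadjusted p under 0.05 was found for 6 of them, against 15.4% of all genes. Between SIN (40 mg/kg) and DN the quasi-likelihood test called 0 and the other tests 2 each. By the quasi-likelihood test 7 were at an unadjusted p under 0.05, against 17.1% of all genes. Cdkn1a was 0.485 of DN in SIN (40 mg/kg) by this test, with an adjusted p of 0.148.

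Few partners of the markers were called between DN and normal. Of 20 receptors, ligands, paralogs and proteases that act with them, 16 were tested in this comparison. A single one was called, Itgb1, against 19.5% of all genes. Itgb1, a subunit of osteopontin and VCAM-1 receptors, fell to 0.784 of normal (adjusted p = 0.029). The median log2 fold change of these 16 was 0.12. Slc22a17, a lipocalin-2 receptor, was at 27.8 ± 2.53 CPM in normal and 25.6 CPM in DN rats on average. Itga4, the VCAM-1 receptor of leukocytes, was at 1.81 ± 0.528 and 1.27 CPM, and neither was called in DN. Each SIN rat had less Slc22a17, at 16.6 to 25.25 CPM, than any normal rat, at 26.1 to 31.5 CPM. Between these groups 13.6% (20 mg/kg) and 13.9% (40 mg/kg) of all genes did not overlap. The Itgb1 call was lost without any 1 of 6 rats, with an adjusted p of up to 0.0841. Against normal, 1 of the 16 was called in SIN (20 mg/kg), lower, and 0 in SIN (40 mg/kg), where 6.36% and 5.97% of all genes were called. In SIN (40 mg/kg) over normal DESeq2 called 4 and the exact test 3, where they called 1761 and 1512 of 15735 genes. At an unadjusted p under 0.05 there were 5 by the quasi-likelihood test, and the share of all genes was not counted. Between SIN (20 mg/kg) and DN none of the 16 was called by any of the 3 tests, with 4 at an unadjusted p under 0.05, against 15.4% of all genes. Between SIN (40 mg/kg) and DN the quasi-likelihood and exact tests called 0 and DESeq2 2. An unadjusted p under 0.05 was found for 6, against 17.1% of all genes.

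Markers of other cells were read beside these results, since several of the 9 genes are not particular to the tubule. The counts of calls below stand beside 19.5% of all genes called between DN and normal. Of 6 smooth muscle genes 1 was called between DN and normal, Tagln, 3.50-fold higher (adjusted p = 0.0064), and their summed level ran from 193 to 810 CPM in DN and from 90.6 to 207 CPM in normal rats. Of 6 tested fibroblast genes Col1a1 (2.11-fold) and Pdgfrb (1.30-fold) rose and Pdgfra fell to 0.754, with sums of 353 to 537 CPM in DN and 348 to 444 CPM in normal rats. Of 12 leukocyte genes 1 was called, Ptprc, which fell to 0.569 of normal (adjusted p = 0.0328, quasi-likelihood test). That call was lost without normal replicate 3 (adjusted p = 0.0955) and without several other single rats. The median log2 fold change of the 12 was 0.0007. Their sums ran from 927 to 1043 CPM in DN and 830 to 1687 CPM in normal rats, with normal replicate 2 the highest. These lists had 1, 1 and 0 calls without normal replicate 1 and DN replicate 3. None of 5 endothelial, 6 urothelial, 5 podocyte or 9 collecting duct genes was called by the quasi-likelihood test in this comparison. At an unadjusted p under 0.05 were 2, 0, 0 and 3, and DESeq2 called 1, 0, 0 and 1. The shares of all genes by these measures are not given here, so these counts are not read further.

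The endothelial sums ran from 244 to 265 CPM in DN and from 259 to 300.3 CPM in normal rats, and the podocyte sums from 304 to 550.0 CPM and 433 to 585 CPM. The urothelial sums ran from 13.2 to 155 CPM and 21.3 to 63.0 CPM, with DN replicate 3 the highest. Those of the collecting duct ran from 1113 to 2356 CPM in DN and 689 to 1383 CPM in normal rats. Set against the labelled tissue, defining proximal tubule genes were abundant in each group, with Slc34a1, the phosphate carrier, at 4354 ± 830.0 CPM in normal and 4137 CPM in DN rats on average. The part of these cells in the marker differences was not tested.

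For each tested marker the genes most like it over the 16 rats were named by Pearson's r of log2 CPM, with no test. Vcam1 was followed by Chd9 (r = 0.935) and Epha3 (r = 0.933), and Epha3 averaged 1.51 CPM in normal and 0.168 CPM in DN rats. Spp1 was followed by Samsn1 (r = 0.914) and Cntf (r = 0.883), Cd44 by Cdc6 (r = 0.925) and Rab26 (r = 0.878), and Timp1 by Cdc6 (r = 0.888) and A2m (r = 0.844). Vim was followed among named genes by Plk2 (r = 0.874) and Rps25 (r = 0.871), Clu by Kctd19 (r = 0.858) and Rpl41 (r = 0.853), Lcn2 by Ptger3 (r = 0.852) and F2r (r = 0.842), and Havcr1 by Heatr4 (r = 0.818) and Pon3 (r = 0.789). Among the markers themselves the closest pairs were Cd44 with Timp1 (r = 0.85) and Lcn2 with Spp1 (r = 0.82). All points share the same libraries, so these are descriptions of 16 kidneys.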

How the data were processed

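RNA-seq was done on kidney tissue of 16 rats, 4 in each of 4 groups. The authors deposited estimated counts per gene for Rnor_6.0, with gene names and lengths. Their notes name TopHat, Bowtie, RSEM and edgeR, and versions are not given in the sources used here. Whole numbers made up 86.2% of the deposited values and 74.3% of those above 0, and fractions were rounded for the tests. Totals were 19616312 to 25217030 per rat, and 4 library columns that match no sample were not used.

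Each pair of groups was fitted on its own with edgeR 4.0.16 (R 4.3.3, limma 3.58.1): filterByExpr, TMM scaling, the two-sided quasi-likelihood test and Benjamini-Hochberg adjustment over all genes, with a threshold of 0.05. The standard error is the fitted log2 fold change divided by the square root of F. Log2 CPM for correlations used a prior count of 2, and permutation tests 100000 resamples in Python 3.11.15. The script was tested on simulated data. DESeq2 1.42.0, the exact test, other scaling, other filters, 1 fit over 16 rats, a replicate block and leaving out each rat were alternatives.

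The 9 genes and all lists were chosen with earlier results of these data known. All 9 were named in every comparison. From each list up to 3 genes with the largest and up to 3 with the smallest log2 fold change among those called in DN over normal were named (5 for injured tubule genes), with other genes named only as signs of a cell type or a role. For likeness, the 3 genes with the highest r were taken, and those without a gene name or with only a locus name are not printed. P-values of the group comparisons measure the spread between 4 rats per group. The permutation p-values of correlations shuffle rats across all groups, so differences between groups enter them. No p-value was computed for r with the group means removed.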

Additional observations from a re-analysis of the deposited data

Results flagged for a closer look

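In 5 of 36 combinations of gene and group, 1 rat stood further from the others than Dixon's ratio allows at the 95% level. This ratio, a test for a single outlying value among 4 rats, was taken on CPM. Chance marks about 1 in 20 such groups if the values are normally distributed, which skewed CPM may not be. Whether the flags hold on log2 CPM was not tested. SIN (40 mg/kg) replicate 4 had Havcr1 at 14.5 CPM, where the others of its group had 0.887 to 2.86 CPM, and its Spp1 was the second highest of all rats. SIN (20 mg/kg) replicate 1 had Vcam1 at 24.6 CPM against 15.4 to 16.02 CPM in the others, beside the highest Havcr1 of the study. Normal replicate 1 had Spp1 at 105 CPM against 420.0 to 472 CPM, and it also had the least collecting duct RNA of all rats. Normal replicate 4 had Lcn2 at 4.86 CPM against 3.06 to 3.33 CPM. SIN (40 mg/kg) replicate 3 had Krt20 at 0.14 CPM, which is 3 reads, and the others of its group had 0 reads. With the others at 0 the ratio is 1.0 for any count above 0, so this flag was fixed in advance and is not read. What set these rats apart was not tested.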

How the results depend on the processing

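The Clu and Vcam1 calls of SIN (40 mg/kg) over normal, the Clu call of SIN (20 mg/kg) and the Vcam1 call of DN held in each alternative run. With 1 rat left out, the number of markers called ran from 1 to 7 in DN over normal (1 without normal replicate 4, 2 without normal replicate 3 or DN replicate 2, 7 without DN replicate 4) and from 1 to 4 in SIN (20 mg/kg) over normal, where DESeq2 called 5 and the exact test 6. Genes called over normal ran from 769 to 3781 in DN, 551 to 1230 in SIN (20 mg/kg) and 462 to 1016 in SIN (40 mg/kg). DESeq2 called 1726 and 1761 for the SIN groups, and the exact test 1512 for SIN (40 mg/kg). Without normal replicate 1 and DN replicate 3, chosen after seeing the data, 928 genes and 1 marker were called in DN. The cause of these shifts was not tested.

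Between SIN (20 mg/kg) and DN, DESeq2 called 221 genes, the exact test 89, the fits without a filter and with at least 10 counts in every rat 2 each, and the fit of all 16 rats 13. Between SIN (40 mg/kg) and DN these were 436 by DESeq2, 161 by the exact test, 8 in the fit of 16 rats and 0 to 4 with 1 rat left out. Between the doses they were 17, 6 and 0, with 0 to 5 with 1 rat left out. No marker was called in any of these comparisons in any alternative run, and their signs turned in several.

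With 1 rat left out, log2 fold changes ran as follows. Havcr1 ran from 1.95 to 2.89 in DN, 2.60 to 4.3 in SIN (20 mg/kg) and 0.85 to 2.92 in SIN (40 mg/kg) over normal, from 0.38 to 1.75 in SIN (20 mg/kg) over DN and from -2.78 to -0.35 between the doses. For SIN (40 mg/kg) over normal, Timp1 ran from -0.02 to 0.46. For SIN (20 mg/kg) over DN, Lcn2 ran from -0.17 to 0.73, Clu from -0.14 to 0.34, Cd44 from -0.43 to 0.18 and Vim from -0.07 to 0.06. For SIN (40 mg/kg) over DN, Havcr1 ran from -1.38 to 0.40, Lcn2 from -0.13 to 0.96, Spp1 from -0.16 to 0.48, Clu from -0.31 to 0.19 and Cd44 from -0.59 to 0.01. For SIN (40 mg/kg) over SIN (20 mg/kg), Lcn2 ran from -0.44 to 0.71, Spp1 from -0.79 to 0.01, Cd44 from -0.35 to 0.05, Vcam1 from -0.25 to 0.01 and Timp1 from -0.32 to 0.17.

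Same-numbered rats of different groups mostly did not deviate together (r from -0.239 to 0.245 over 24 pairs, 2 of them over 0.1). In 2 pairs each rat was the best match of the other. The titles do not say whether the numbers are a pairing, and a low r cannot exclude one. With the replicate number as a block, 3, 2 and 3 markers and 1325, 758 and 1255 genes were called over normal in DN, in the lower SIN dose and in the higher, and 0 genes in the other comparisons. Under the block Havcr1 and Clu were at -0.58 and 0.02 in SIN (40 mg/kg) over DN, and Lcn2 at -0.01 between the doses.

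With the 2 rats farthest from the median left out, r with Havcr1 was 0.42 for Spp1, 0.51 for Clu, 0.49 for Cd44 and 0.47 for Timp1 (adjusted p = 0.164, 0.12, 0.12 and 0.12, permutation test). The value for Vcam1, -0.66 (adjusted p = 0.035, permutation test), spans separate clusters of normal and diabetic rats and is not read as a relation. With the group means removed it was 0.04 for Clu and 0.45 for Vcam1. With the proximal tubule sum it was then 0.33 for Clu and -0.36 for Vcam1 (-0.27 without the 2 farthest rats), and with the collecting duct sum -0.15 for Havcr1 and -0.09 for Clu. Havcr1 in normal rats rests on 9 to 47 reads, and Krt20 on at most 8 reads in any rat.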

Other observations

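Egf, Umod and Slc7a13 were lower in all 3 diabetic groups, while Slc12a1 and Kcnj1, also of the thick ascending limb, were not called in DN. Slc12a1, its salt carrier, was at 755 ± 224 CPM in normal and 675 ± 292 CPM in DN rats, and Kcnj1, its potassium channel, at 326 ± 71.8 and 361 ± 167 CPM. Egf, the growth factor of the distal tubule, fell from 1285 ± 225 CPM (SD, n = 4) to 591 ± 113 CPM in DN (adjusted p = 0.00524, edgeR's quasi-likelihood test), and its log2 fold change was -1.31 in SIN (20 mg/kg) and -1.39 in SIN (40 mg/kg) (adjusted p = 0.000731 and 0.000787). Umod, which encodes uromodulin, fell from 3289 ± 304 to 1932 ± 410 CPM in DN (adjusted p = 0.0154), a call lost without normal replicate 4 (adjusted p = 0.0534). Slc7a13, a transporter of the straight proximal tubule, fell from 2068 ± 142 to 728 ± 99.3 CPM in DN (adjusted p = 0.00113). In each of these 3 genes every DN rat was below every normal rat, and 24.3% of all genes did not overlap between these groups. Of 17 proximal tubule genes tested Slc7a13 was the single call in DN, and of 7 loop and distal genes Egf and Umod were the calls, against 19.5% of all genes.

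Tagln, a smooth muscle protein, was 42.5 ± 13.9 CPM in normal, 149 ± 54.4 in DN, 82.0 ± 14.6 in SIN (20 mg/kg) and 88.7 ± 8.99 CPM in SIN (40 mg/kg) rats. It rose in all 3 diabetic groups (adjusted p = 0.0064, 0.0297 and 0.0112), and the differences between each SIN group and DN did not pass the test (adjusted p = 0.27 and 0.205). Each DN rat was above every SIN (20 mg/kg) rat, and 8.85% of all genes did not overlap between these groups. Without DN replicate 3, the rat with the most smooth muscle RNA, the log2 fold change of DN over normal was 1.57. With all rats it was 1.81.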
